A study of Homo sapiens with 22 samples.

Results

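Cohesin is a ring-shaped complex that folds chromosomes into loops. Each complex carries the kleisin subunit RAD21 and 1 of the alternative subunits STAG1 and STAG2, and the DNA-binding protein CTCF stalls moving complexes at its motif. NIPBL loads cohesin and drives loop extrusion, WAPL releases it from chromatin, and PDS5A is a regulatory subunit that sits on RAD21. Many gene promoters hold CTCF sites, and STAG1-cohesin is known to sit at CTCF sites more often than STAG2-cohesin, which is also found away from CTCF. The regions described here are CTCF sites at the starts and 3' ends of genes where a STAG1 peak was called without a STAG2 peak, 2618 of the 26879 peaks in the STAG1 list. Members were chosen by peak calls and position: a member was a STAG1 peak that shared no base with a STAG2 peak, shared at least 1 bp with a CTCF peak, and had its summit within 1 kb of either end of a protein-coding gene of RefSeq (GRCh38.p14).

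The series is ChIP-seq in asynchronous hTERT RPE-1 cells, an established line of human retinal pigment epithelium immortalised with telomerase. It holds 22 samples, of which 12 are immunoprecipitations with a peak list and 10 are inputs without one. CTCF and WAPL were profiled in wild-type cells. The other 10 lists came from 2 single clones in which NIPBL carries the FKBP12(F36V) tag, which lets the degrader dTAGV-1 remove the protein. How far NIPBL fell was not analysed here. Clone NIPBL-A2 (mCherry-P2A-FKBP12(F36V)-NIPBL), here A2, gave RAD21 after 24 h of DMSO and after 4 h and 24 h of dTAGV-1, plus an HA immunoprecipitation whose peak names read HA-NIPBL. Clone NIPBL-D7 (mGreenLantern-P2A-FKBP12(F36V)-NIPBL), here D7, gave the same 3 RAD21 lists, PDS5A after 24 h of DMSO, and STAG1 and STAG2, for which the labels give no treatment and the peak names read DMSO. STAG1 and STAG2 shared an input, as did PDS5A and RAD21 of D7 in DMSO. Mouse NIH/3T3 chromatin was added at about 10% to the RAD21 and PDS5A samples and to none of the others, HA chromatin had a second fixative, and the CTCF libraries alone had a size selection and a different preparation kit. Every group is 1 library. Shares of peaks therefore carry 95% intervals for counting error only, there is no replicate check, and no p-value is given. The lists hold 25763 to 39713 RAD21 peaks, 28887 for PDS5A, 59138 for CTCF, 22518 for STAG2, 2667 for WAPL and 230 for HA. Read totals are not in the files, so the depth behind each list is unknown, and a missing peak can be a peak below the calling threshold.

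Of the 26879 STAG1 peaks, 11294 overlapped no STAG2 peak, 8566 of those overlapped CTCF, and 2618 of those lay at a gene end. In all, 5248 STAG1 peaks lay at a gene end, 1412 of them STAG1-only peaks without CTCF. The same rule with the roles of STAG1 and STAG2 exchanged found 4165 STAG2-only CTCF peaks, of which 95 lay at a gene end. The members are compared below with 1192 CTCF peaks at gene ends that overlapped both STAG1 and STAG2, called shared sites, and with 5948 STAG1-only CTCF peaks farther than 1 kb from any gene end, called distal STAG1-only sites. The limits of the rule were filled on both sides. The members beside SIRPD and GALNT7 had summits 1000 bp from a gene end, and the STAG1-only CTCF peaks beside IWS1 and ZFYVE28 missed at 1001 bp. The members beside RAB11A and THSD7A lay 68 bp and 77 bp from a STAG2 peak, and the shared site beside FRMD6 overlapped one by 50 bp. For most members the nearest STAG2 peak was remote, at a median gap of 33070.5 bp, and 57 members had one within 1 kb.

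The base sequence is shown for the starts of 6 genes with strong members. Their STAG1 folds ran from 31.5 to 66.2, beside a median of 5.24 over all members, so they are not typical members. Each sequence is the RefSeq promoter window of 250 bases before and 50 after the gene start (GRCh38.p14), read 5' to 3' along the gene. The 6 genes are those whose window holds the summit of a member with the highest STAG1 fold enrichment. Capitals mark every match, on either strand, to a relaxed form of the CTCF core motif, 12 bases long, in which the fixed letters are CC, then AG after 3 free bases, then GGC after 2 free bases.
RAPGEF1: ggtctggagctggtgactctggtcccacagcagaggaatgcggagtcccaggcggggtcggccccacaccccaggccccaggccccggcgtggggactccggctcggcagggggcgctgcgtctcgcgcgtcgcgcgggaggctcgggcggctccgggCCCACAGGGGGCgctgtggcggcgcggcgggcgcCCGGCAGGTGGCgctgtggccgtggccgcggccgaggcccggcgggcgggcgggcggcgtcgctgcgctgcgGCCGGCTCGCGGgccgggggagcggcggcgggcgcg
CEBPB: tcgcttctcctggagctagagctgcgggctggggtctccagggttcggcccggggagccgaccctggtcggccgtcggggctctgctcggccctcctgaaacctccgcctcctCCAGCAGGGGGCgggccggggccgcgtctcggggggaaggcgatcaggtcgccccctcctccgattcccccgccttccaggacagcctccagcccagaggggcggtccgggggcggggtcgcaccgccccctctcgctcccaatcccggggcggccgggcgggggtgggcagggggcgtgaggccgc
IRS1: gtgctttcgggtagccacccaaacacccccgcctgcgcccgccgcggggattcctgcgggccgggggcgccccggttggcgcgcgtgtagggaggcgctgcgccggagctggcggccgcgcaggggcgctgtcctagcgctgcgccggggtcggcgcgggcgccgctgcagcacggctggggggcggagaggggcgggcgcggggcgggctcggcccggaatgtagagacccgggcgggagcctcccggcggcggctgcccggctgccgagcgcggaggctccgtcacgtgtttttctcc
ZZZ3: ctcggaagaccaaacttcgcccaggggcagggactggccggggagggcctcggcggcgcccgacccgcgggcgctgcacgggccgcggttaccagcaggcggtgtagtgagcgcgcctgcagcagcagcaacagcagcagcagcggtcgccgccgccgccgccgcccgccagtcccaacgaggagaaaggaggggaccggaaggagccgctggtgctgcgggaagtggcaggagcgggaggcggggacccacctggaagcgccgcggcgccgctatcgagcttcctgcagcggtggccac
RPL10A: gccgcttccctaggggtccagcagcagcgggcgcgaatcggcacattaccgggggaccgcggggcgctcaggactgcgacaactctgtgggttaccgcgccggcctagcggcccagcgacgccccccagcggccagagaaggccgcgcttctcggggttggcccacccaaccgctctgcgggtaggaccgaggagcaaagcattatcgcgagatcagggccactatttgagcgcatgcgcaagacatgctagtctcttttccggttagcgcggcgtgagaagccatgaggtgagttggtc
EP400: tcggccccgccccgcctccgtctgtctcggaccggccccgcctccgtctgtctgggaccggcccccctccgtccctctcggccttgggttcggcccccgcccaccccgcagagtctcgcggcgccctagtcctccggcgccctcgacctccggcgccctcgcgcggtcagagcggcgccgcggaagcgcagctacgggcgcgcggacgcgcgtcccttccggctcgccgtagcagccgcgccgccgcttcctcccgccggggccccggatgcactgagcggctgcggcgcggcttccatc
The windows are chr9:131740027-131740326 on the minus strand for RAPGEF1, chr20:50190333-50190632 on the plus strand for CEBPB, chr2:226799771-226800070 minus for IRS1, chr1:77683349-77683648 minus for ZZZ3, chr6:35468151-35468450 plus for RPL10A and chr12:131949692-131949991 plus for EP400. RAPGEF1, a guanine nucleotide exchange factor for RAP1, held 3 matches, of which the first was centred 46.5 bp from the STAG1 summit. CEBPB, a C/EBP family transcription factor, held 1 match, centred 25.5 bp from the summit, and it was also the sole match in these windows to the stricter form of the motif, which also requires A as the third base. The other 4 windows, those of the insulin receptor substrate IRS1, the zinc finger protein ZZZ3, the ribosomal protein RPL10A and the chromatin remodeller EP400, held no match in these letters. G and C made up 65.7% to 83% of the 6 windows.

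Motif matches were commoner in windows with a member than over all windows. A promoter window was found for 15813 of the 19974 protein-coding genes used, and 748 windows of 710 genes held the summit of 680 members. The stricter motif, searched on both strands, stood in 60 of the 748 windows, or 8.02% (6.28 to 10.2, Wilson 95% interval), beside 2.53% of all 22035 windows. It stood in 15.0% of the 307 windows with a shared summit, in 4.18% of 2322 windows with a CTCF peak and no STAG1 peak, and in 1.74% of 14807 windows with neither. The relaxed form, whose matches include all of those, stood in 33.0% of the member windows beside 12.3% of all windows. In member windows with a relaxed match, the match nearest to the STAG1 summit lay at a median of 24.5 bp from it, and 206 of 247 such windows had it within 100 bp. Of 284 relaxed matches in member windows, 61.3% (55.5 to 66.7) lay on the strand of the gene, beside 55.7% over all windows and 70.1% (62.2 to 76.9) of 147 matches in shared windows. CTCF binding was part of the rule, so these shares describe the members.

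Member windows were rich in G and C. Their median was 69.3%, beside 67.0% for shared windows, 65.0% for windows with CTCF and no STAG1, and 59.3% for windows with neither. The ratio of observed to expected CpG, which is high in CpG islands, had a median of 0.858 in member windows and 0.603 in windows with neither. Within windows of 65% to 75% GC, a band set after these values were seen, the relaxed form stood in 33.9% (29.4 to 38.7) of 398 member windows, in 39.3% (31.1 to 48.2) of 122 shared windows, in 21.1% (18.6 to 23.8) of 967 windows with CTCF and no STAG1, in 14.0% of 3535 windows with neither, and in 17.0% of all 6641 windows in the band. The stricter form in the band stood in 6.28% (4.29 to 9.11) of member windows, 13.1% (8.24 to 20.2) of shared windows and 4.34% (3.23 to 5.82) of windows with CTCF and no STAG1, so the intervals of the first and the last overlapped.

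**Figure D1:**
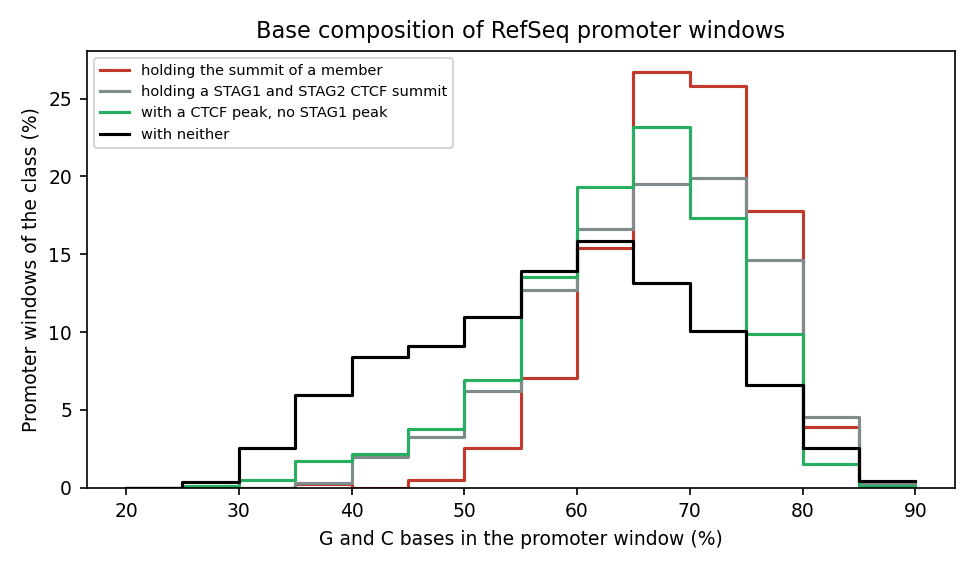
Share of RefSeq promoter windows (y axis, percent of each class) by their G and C content (x axis, percent, steps of 5) for windows holding the summit of a member, windows holding a shared summit, windows with a CTCF peak and no STAG1 peak, and windows with neither. The member windows peak between 65% and 75%, and windows with neither spread far lower, with medians of 69.3% and 59.3%.

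The members were mostly sites at gene starts. Strand was available for the nearest gene of 2120 members, and for 1919 of them, or 90.5% (89.2 to 91.7), the nearest gene end was the start, while 201 were nearest to a 3' end. Among shared sites with strand, 67.7% (64.6 to 70.6) were nearest to a start, so members exceeded them by 22.8 points (19.6 to 26.1, Newcombe 95% interval). The remaining 498 members lay nearest to a gene whose strand was not used here. Summits sat just inside the gene more often than before it, with 1170 at or downstream of the start and 749 upstream, a median of +95 bp and middle 50% from -103.5 to 366.5 bp. The largest count in any 100 bp step, 264 members, lay in the 100 bp before the start.

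**Figure D2:**
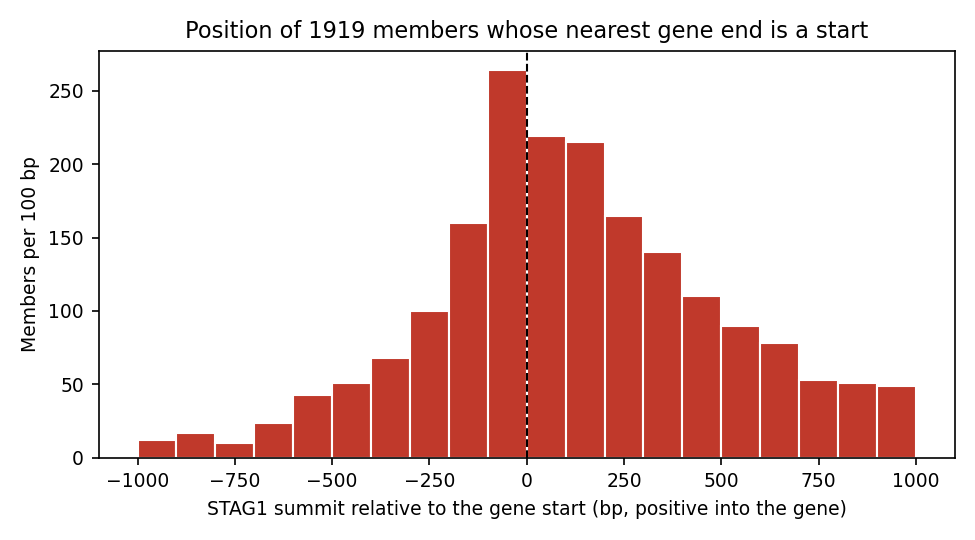
Number of members (y axis) per 100 bp step of distance from the STAG1 summit to the gene start (x axis, bp, positive values inside the gene, dashed line at the start) for the 1919 members nearest to a start. Counts are highest from 100 bp before to 200 bp after the start, at 264, 219 and 215 per step, and fall off more slowly into the gene than away from it.

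Members were spread over the genome. They lay at 2928 genes, 14.7% of the 19974 tested, 85 of which had 2 or more members. A summit lay within 1 kb of the ends of 2 or more genes for 367 members (14.0%), and 64.4% of members had their summit inside a protein-coding gene. Chromosome 10 had the most members for its genes, 17.2 per 100 protein-coding genes. Chromosome 19 had 7.93 and the X chromosome 4.01.

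The STAG1 signal of the members was low within its list. Fold enrichment is the authors' value over background for each peak, and it ranks peaks only within its own list. The STAG1 fold of the members had a median of 5.24 and ran from 2.00 to 66.2, against a median of 10.4 for the whole list, 22.1 for shared sites and 7.22 for distal STAG1-only sites. At these peaks, STAG2 that was absent and STAG2 under its calling threshold cannot be told apart. The CTCF fold at members had a median of 14.8, close to the middle of the CTCF list at a median percentile of 48.9, while shared sites had a median percentile of 87.7. Member peaks were broader than distal ones, with median widths of 732 bp and 539 bp, and shared sites were broader still at 954 bp.

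Cohesin summits at members often stood off the CTCF summit. RAD21 peaks of D7 in DMSO had their summit within 100 bp of the CTCF summit at 68.6% of the members with such a peak, against 90.6% at shared sites and 90.3% at distal STAG1-only sites, a gap of -22.0 points (-24.4 to -19.4) and -21.7 points (-23.7 to -19.7). RAD21 of A2 in DMSO gave 67.5% at members, 90.8% at shared sites and 92.1% at distal sites. PDS5A showed the same order at 62.4%, 84.9% and 82.6%. The width of the peaks, which moved with class, bears on how far a summit can lie from CTCF, and its part was not tested. The STAG1 summits themselves lay a median of 58 bp from the CTCF summit at members and 32 bp in both other classes.

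Without degrader, most members overlapped a RAD21 peak. RAD21 of D7 in DMSO overlapped 90.9% of members, beside 93.6% of all STAG1 peaks, 99.6% of shared sites and 90.9% of distal STAG1-only sites. The difference from distal sites was 0.0596 points (-1.30 to 1.35), and that from shared sites was -8.63 points (-9.82 to -7.45). Within deciles of STAG1 fold the difference from shared sites was -2.08 points (-6.41 to 7.60), with an interval that includes 0. With RAD21 lists of equal length it was -45.1 points. Against distal sites it was 4.29 points (2.64 to 5.87) within deciles of STAG1 fold. With RAD21 and PDS5A peaks limited to a -log10 q of at least 10, the difference from distal sites was -9.83 points. It was -22.6 points with RAD21 lists of equal length. RAD21 of A2 in DMSO, from the other clone, overlapped 85.2% of members beside 91.2% of all STAG1 peaks. The untreated clones largely coincided at the members, since 89.8% of those with RAD21 in D7 also had it in A2 (94.8% over all STAG1 peaks) and 95.9% of those with RAD21 in A2 had it in D7 (97.3%).

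PDS5A was found at 80.6% of members, beside 70.2% of all STAG1 peaks. That was 9.47 points above distal STAG1-only sites (7.54 to 11.3) and the difference from shared sites was -13.0 points (-15.0 to -10.9). Both differences changed with the setting, and the cause was not tested. Within equal deciles of STAG1 fold the members stood 16.6 points above distal sites (14.4 to 18.6) and 14.7 points above shared sites (5.65 to 23.7), which turns the second direction, though the 2 lowest deciles held only 9 and 19 shared sites. Without those deciles the members stood 9.78 points above shared sites. With PDS5A and RAD21 peaks limited to a -log10 q of at least 10, the difference from distal sites was instead -3.51 points (-5.78 to -1.26).

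WAPL and the HA-tagged protein were almost absent from the lists at members. WAPL peaks overlapped 14 members, or 0.535%, beside 0.773% of distal STAG1-only sites, 9.65% of all STAG1 peaks and 14.6% of shared sites. HA peaks overlapped 2 members, or 0.0764%, beside 0.101% of distal STAG1-only sites and 0.766% of all STAG1 peaks. Peaks of both lists were thus similarly rare at distal STAG1-only sites. Both lists are short, so these shares say little about weak binding. The WAPL-bound members with the highest STAG1 fold lay beside SYT8, a synaptotagmin family gene, RPRM, a p53-induced cell-cycle arrest gene, and GPR142, a G protein-coupled receptor gene. Those with an HA peak lay at the shared start region of the imprinted genes SGCE and PEG10 and beside SOX4, a transcription factor gene.

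**Figure D3:**
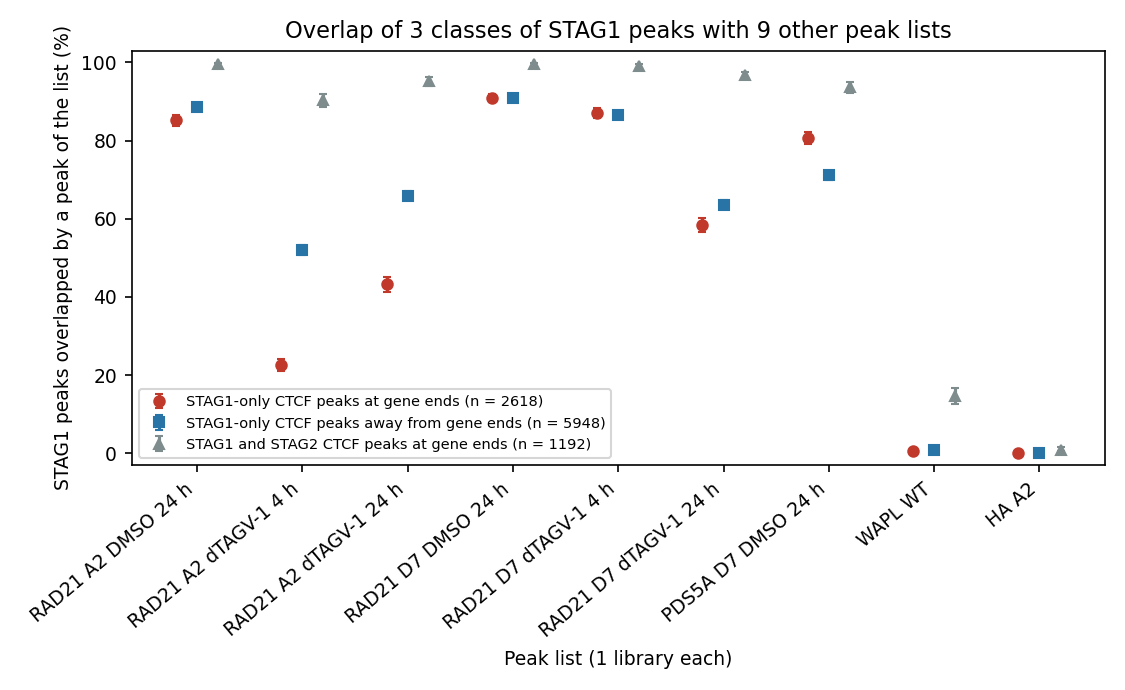
Share of STAG1 peaks (y axis, percent) overlapped by a peak of each of 9 other lists (x axis, 1 library each) for the 2618 members, 5948 distal STAG1-only sites and 1192 shared sites. Bars are Wilson 95% intervals for counting error. At 4 h of dTAGV-1 in A2 the members fall to 22.6% while the shared sites stay at 90.5%, and in D7 at 4 h the members are at 87.0%.

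After dTAGV-1, RAD21 peaks overlapped 22.6% of all members in A2 at 4 h (67.7% of all STAG1 peaks), 43.2% at 24 h (75.7%), 87.0% in D7 at 4 h (90.2%) and 58.4% at 24 h (78.0%). Of the members with RAD21 in DMSO, most lacked the peak at 4 h in A2 and few did in D7. Retention is the share of sites with a RAD21 peak in the DMSO list of a clone that also had one after dTAGV-1. In A2 at 4 h, 583 of 2231 members retained RAD21, or 26.1%, beside 73.9% of all STAG1 peaks. In A2 at 24 h it was 1104, or 49.5%, beside 81.7%. In D7 at 4 h, 2136 of 2381 members retained it, or 89.7%, beside 93.0%, and at 24 h 1498, or 62.9%, beside 82.2%. The clones thus ran in opposite order over time, with fewer members at 4 h than at 24 h in A2 and more in D7. The 4 h list of A2 is the shortest of the RAD21 lists, at 25763 peaks, and the 4 h list of D7 holds 39059. Clone, library and depth cannot be told apart in these differences.

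Against shared sites the members retained less RAD21 in all 4 comparisons. The difference was -64.7 points (-67.0 to -62.1) in A2 at 4 h, where 90.8% of shared sites kept their peak, and -46.0 points (-48.3 to -43.5) at 24 h, where 95.5% did. It was -9.53 points (-10.9 to -8.19) in D7 at 4 h and -34.2 points (-36.3 to -32.0) at 24 h. These 4 directions held under each of the 12 alternative settings tried per comparison, although the D7 difference at 4 h shrank to -2.004 points (-6.05 to 7.97) within deciles of STAG1 fold and was -4.76 points without the deciles of fewer than 20 shared sites. Without them the A2 difference at 4 h was -30.7 points, beside -35.3 points over all deciles. Within deciles of RAD21 fold in the DMSO list it was -20.1 points (-29.7 to -14.1), and -26.9 points at 24 h. In D7 it was then -1.48 points (-5.85 to 8.18) at 4 h and -20.8 points at 24 h. The lowest of these deciles were thin, with 3, 12 and 14 shared sites in A2.

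Against distal STAG1-only sites the members differed in A2. There the difference in retention was -31.5 points (-33.8 to -29.3) at 4 h, where distal sites kept 57.7%, and -22.2 points (-24.6 to -19.7) at 24 h, where distal sites kept 71.6%. Members are weaker peaks, and equal strength narrowed the gap. Within deciles of STAG1 fold it was -20.8 points (-22.9 to -18.7) at 4 h and -13.6 points (-16.0 to -11.1) at 24 h, and within deciles of RAD21 fold in the DMSO list it was -12.7 points (-14.6 to -10.7) and -7.62 points (-10.1 to -5.22). In D7 the difference was -0.356 points (-1.85 to 1.07) at 4 h and -5.05 points (-7.36 to -2.75) at 24 h. The D7 differences turned to 3.17 points (1.39 to 4.86) and 0.972 points (-1.50 to 3.37) within STAG1 deciles and to 4.63 points (2.80 to 6.41) and 4.22 points (1.73 to 6.61) within DMSO RAD21 deciles. In A2 at 4 h the gap was seen in the 7 lowest deciles, and in the eighth 49 of 51 members and 92.9% of distal sites kept RAD21, while in the ninth it was 18 of 20 members and 95.1% of distal sites. A lower retention than at distal sites was thus seen in A2 at every setting and in D7 at some.

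**Figure D4:**
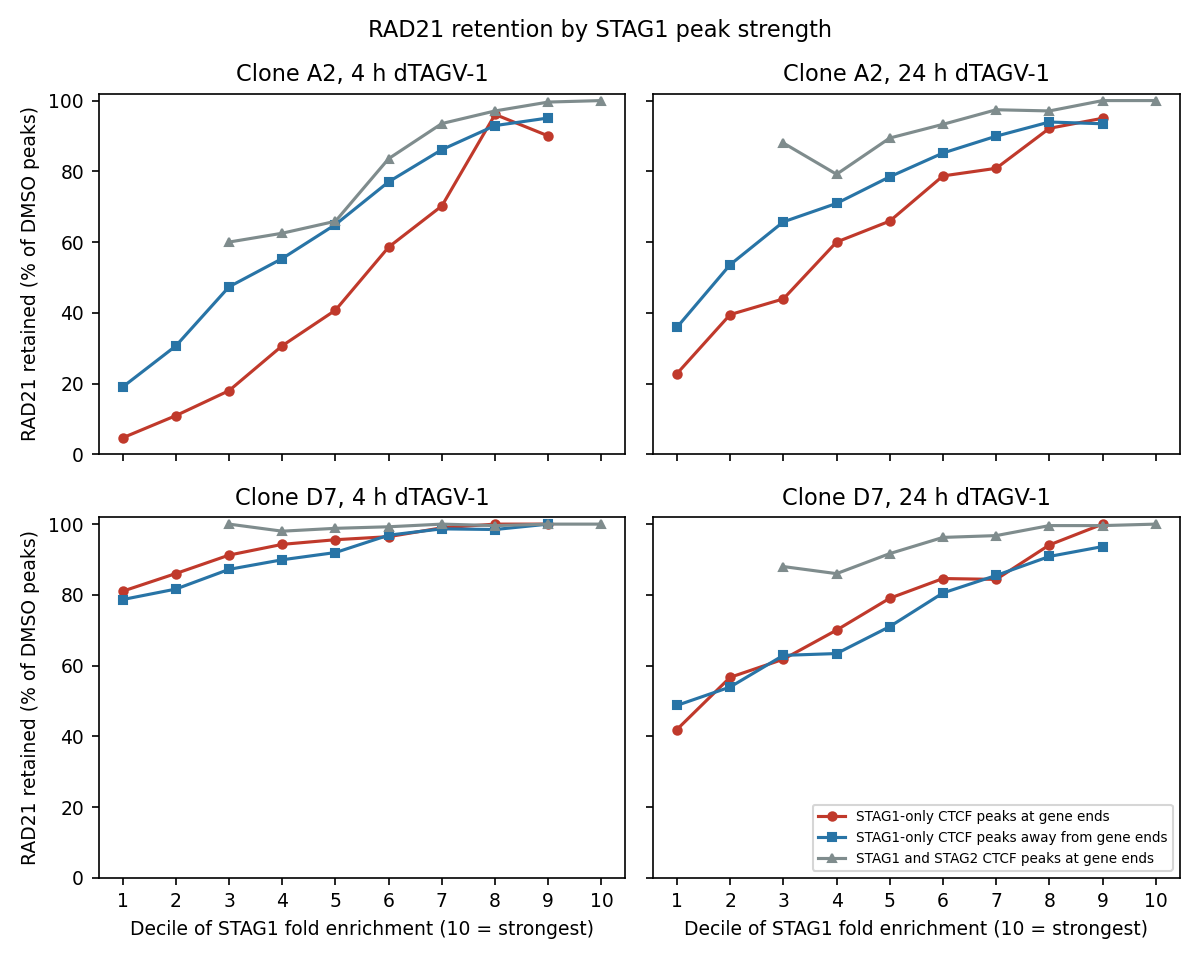
RAD21 retention (y axis, percent of sites with a RAD21 peak in the DMSO list of the clone) by decile of STAG1 fold over the whole STAG1 list (x axis, 10 the strongest) for members, distal STAG1-only sites and shared sites, in 4 panels for 2 clones and 2 times. Points of fewer than 20 sites are left out. In A2 at 4 h the members rise from 4.65% in the first decile to 70.2% in the seventh and lie under the distal sites there (19.02% and 86.1%), while in D7 the curves of members and distal sites run close together.

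Within the members, retention followed peak strength. In A2 at 4 h it was 4.52% among the 655 members with the lowest STAG1 fold and 54.7% among the 655 with the highest. Ranked by CTCF fold, the lowest 655 gave 6.52% and the highest 655 gave 44.7%. D7 at 24 h moved from 42.0% to 82.5% between the same STAG1 groups, and D7 at 4 h from 80.7% to 96.6%. Members that kept RAD21 in A2 at 4 h had a median CTCF fold of 43.3, and those that lost it 12.3. Their median distances to the gene end were 294 bp and 247 bp.

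Members at 3' ends kept RAD21 more often than those at starts in A2. At 4 h the shares were 44.6% of 186 and 23.8% of 1621, and starts minus 3' ends came to -20.9 points (-28.3 to -13.6). At 24 h they were 56.5% and 48.2%. In D7 at 24 h the shares were 62.7% and 62.8%, with starts 0.0920 points above (-6.94 to 7.60). Members at 3' ends had higher median folds, 7.38 for STAG1 and 47.6 for CTCF, against 5.06 and 13.0 at starts, and the part of strength in the difference was not tested.

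The position of RAD21 relative to CTCF also went with retention. In A2 at 4 h, 33.5% of the 1505 members whose DMSO RAD21 summit lay within 100 bp of the CTCF summit kept a peak, against 10.9% of the 726 whose summit lay farther off, a difference of 22.6 points (19.2 to 25.8). Distal STAG1-only sites split in the same way, at 61.1% and 18.0%. The difference at members was 16.8 points (12.4 to 21.1) in A2 at 24 h, 5.07 points (2.36 to 8.02) in D7 at 4 h and 6.36 points (2.16 to 10.6) in D7 at 24 h. The RAD21 fold in DMSO was higher where the summits coincided, with medians of 9.35 and 5.82 in A2, and its part was not tested. Of the members with RAD21 in A2 at 4 h, 85.8% had the remaining summit within 100 bp of CTCF, beside 92.4% of shared sites and 97.3% of distal STAG1-only sites.

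Members with PDS5A in untreated D7 kept RAD21 more often than those without. The shares were 28.5% and 12.8% in A2 at 4 h, 15.8 points apart (11.3 to 19.5), and 65.1% and 51.1% in D7 at 24 h, 14.1 points apart (8.60 to 19.5). PDS5A-bound members had the higher median CTCF fold, 17.8 against 7.60, so strength moved with PDS5A as well. Members at the ends of 2 or more genes kept RAD21 less often than those at 1 gene, with differences of -10.1 points (-15.9 to -4.12) in A2 and -12.4 points (-18.1 to -6.65) in D7, both at 24 h. Here the median CTCF folds were 15.1 and 14.7 and the median STAG1 folds 4.86 and 5.32, and the part of strength was not tested.

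The 6 RAD21 lists combined in a few common ways. A peak in all 6 lists was found at 506 members, or 19.3%, beside 62.5% of all STAG1 peaks, 88.3% of shared sites and 40.6% of distal sites. Another 480 members had RAD21 in every list but A2 at 4 h, 461 had it in both DMSO lists and in D7 at 4 h alone, and 385 had it in both DMSO lists and both D7 dTAGV-1 lists but neither of A2. RAD21 stood in both DMSO lists at 2139 members. Of these, 1396 lacked it in A2 at 4 h and had it in D7 at 4 h, while 6 showed the opposite. These are 53.3% and 0.229% of all members, beside 18.0% and 0.956% of all STAG1 peaks and 28.6% and 1.34% of distal sites, so the imbalance was in the same direction there. Over time, 558 were absent in A2 at 4 h and present at 24 h, with 46 the other way round (21.3% and 1.76% of all members, beside 9.04% and 2.06% of all STAG1 peaks). In D7 the counts ran the other way, with 564 present at 4 h and absent at 24 h and 33 the reverse (21.5% and 1.26%, beside 9.78% and 1.42%).

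**Figure D5:**
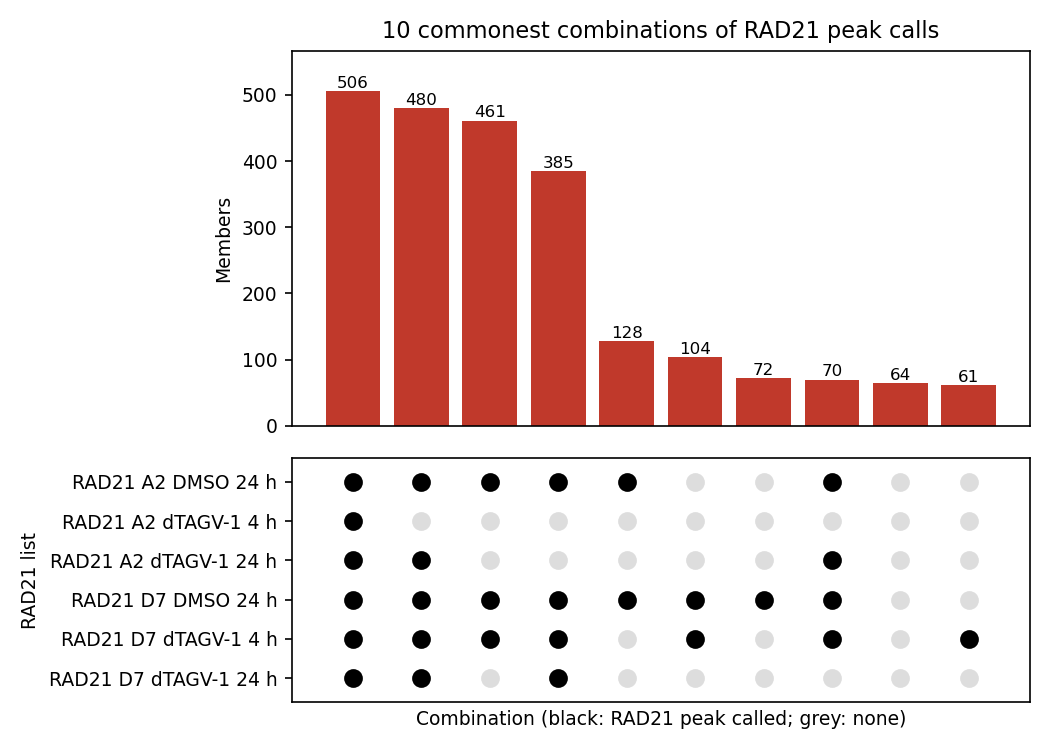
Number of members (bars, y axis) with each of the 10 commonest combinations of RAD21 peaks, with a black dot below the bar for each of the 6 lists in which the peak was called. The first 4 combinations hold 506, 480, 461 and 385 members, and the second to the fourth lack the A2 4 h list.

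The members with the highest STAG1 fold kept RAD21 in all 6 lists. RAPGEF1 led, at chr9:131738865-131740707 with its summit 133 bp upstream of the start and a STAG1 fold of 66.2. Its RAD21 folds were 79.6, 13.5 and 15.6 in the A2 lists (DMSO, 4 h, 24 h) and 58.3, 23.6 and 21.6 in the D7 lists. The next was CEBPB, at chr20:50189935-50192240, 106 bp upstream of the start, with a STAG1 fold of 50.6 and RAD21 folds of 67.5, 11.7 and 17.2 in A2 and 71.4, 37.7 and 27.1 in D7. These are folds against the input in separate lists, so only the presence of the peak is compared. IRS1, at chr2:226797872-226801484 and 108 bp upstream of the start, had a STAG1 fold of 44.3 and also lay within 1 kb of an end of RHBDD1, a rhomboid protease gene. The IRS1 member lay only 949 bp from a STAG2 peak.

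NPPC, which encodes C-type natriuretic peptide, had its member 963 bp inside the gene with a STAG1 fold of 37.4. IL17RC, an interleukin-17 receptor subunit gene, had a STAG1 fold of 34.9 at its 3' end, 641 bp from it and within 1 kb of CRELD1. ZZZ3, RPL10A, SPATS2L, CSHL1 and SYT8 followed with STAG1 folds from 34.7 to 31.8. The ribosomal protein gene RPL10A had the strongest CTCF peak of these 10, with a fold of 157, and a PDS5A fold of 87.0. STAT5A and STAT3, adjacent signal transducer genes, shared a member at chr17:42312047-42312877 with a STAG1 fold of 30.4 and RAD21 in all 6 lists.

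After dTAGV-1, all 4 lists lacked RAD21 at 128 members that had it in both DMSO lists, or 4.89%, beside 2.71% of all STAG1 peaks and 3.88% of distal sites. Those with the highest RAD21 fold in D7 included both members at ZNRD2, a zinc ribbon domain gene. The first, at chr11:65569735-65570454 and 307 bp upstream of the start, had RAD21 folds of 17.1 in A2 and 16.5 in D7 and a PDS5A fold of 8.91. The second, at chr11:65571773-65572304, lay 156 bp from the 3' end and near FAM89B, with folds of 12.6 and 13.0. The others lay within 1 kb of both FXYD1 and FXYD7, which encode regulators of the sodium pump, and of both SNAPC5, a subunit gene of the small nuclear RNA activating complex, and the ribosomal protein gene RPL4. The SNAPC5 member had a strong CTCF peak, with a fold of 140, and RAD21 folds of 8.54 in A2 and 13.7 in D7.

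No RAD21 peak was called at 64 members, or 2.44%, beside 2.02% of all STAG1 peaks. The highest STAG1 folds among them were 7.36 at RNASEH2B, a subunit gene of ribonuclease H2, 7.22 at GTF2IRD2 and 7.20 at the chromatin remodeller gene CHD2. These members also lacked PDS5A. GTF2IRD2 has near-identical copies, so the assignment of its reads is uncertain.

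Genes of cohesin itself had a member at 3 of 15 (20%), beside 14.7% of all protein-coding genes. Shared sites lay at 4 of the 15 (26.7%), beside 6.39% of all protein-coding genes. CDCA5, which encodes the cohesin protector sororin, had a member within 1 kb of an end with a STAG1 fold of 11.5 and RAD21 in all 6 lists. This member was nearest to NAALADL1, 95 bp from its end. ESCO1, a cohesin acetyltransferase gene, had a member with a CTCF fold of 166, RAD21 folds of 11.1 in A2 and 6.79 in D7 under DMSO and 5.88 in D7 at 4 h, and no RAD21 peak in the other lists. NIPBL, the degraded protein's own gene, had a member 789 bp upstream of its start with RAD21 folds of 5.51 in A2 and 8.47 in D7 under DMSO and no peak after dTAGV-1.

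Members lay at 13 of 84 cytosolic ribosomal protein genes (15.5%), 16 of 77 mitochondrial ribosomal protein genes (20.8%), 8 of 48 proteasome genes (16.7%), 7 of 34 aminoacyl-tRNA synthetase genes (20.6%), 5 of 30 Mediator genes (16.7%) and 9 of 30 RNA polymerase subunit genes (30%), beside 14.7% of all protein-coding genes. The proteasome count includes PSMG1 and PSMG3, assembly chaperones that the name pattern also took. In A2 at 4 h, 2 of 13 members at cytosolic ribosomal protein genes and 1 of 13 at mitochondrial ones kept RAD21, beside 26.1% of all members with RAD21 in DMSO. At 24 h it was 7 of 13 and 2 of 13, beside 49.5%. Members at cytosolic and mitochondrial ribosomal protein genes had median STAG1 folds of 5.63 and 3.87, beside 5.24 for all members. The part of strength was not tested. MRPL17 was the mitochondrial one with the highest STAG1 fold, 15.3, and had RAD21 in all 6 lists. SARS2 and MRPS12, which share a start region, had a member with a CTCF fold of 160 and RAD21 in both DMSO lists and both D7 dTAGV-1 lists. POLR1F, an RNA polymerase I subunit gene, had a STAG1 fold of 19.7 and RAD21 in both DMSO lists and both 4 h lists. MED21 and MED11, of Mediator, and PSMD11, of the proteasome lid, had STAG1 folds of 12.9, 9.87 and 9.64 and RAD21 in all 6 lists. RPL27A combined a STAG1 fold of 10.8 with a weak CTCF peak of fold 3.20 and lacked RAD21 in A2 at 4 h alone.

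Genes of the YAP, TGF-beta and AP-1 group, which respond to cell contact and growth factors, had a member at 9 of 25 (36.0%), beside 14.7% of all genes. Shared sites also lay at 6 of the 25 (24%), beside 6.39% of all protein-coding genes. All 9 of these members had RAD21 in both DMSO lists and none kept it in A2 at 4 h, beside 26.1% of all members and 73.9% of all STAG1 peaks. In A2 at 24 h 5 of the 9 kept it (49.5% of all members). In D7 7 did at 4 h (89.7%) and 6 at 24 h (62.9%). The median STAG1 fold of the 9 was 5.73, beside 5.24 for all members, and the part of strength was not tested. SMAD7, an inhibitor of TGF-beta signalling, had the highest STAG1 fold of the group, 9.72, and SMAD3, a TGF-beta effector, followed with 7.34. Their CTCF folds were 6.61 and 5.11, below the member median. CCN1, YAP1, LATS2, JUND, JUNB and AJUBA also had a member. Among p53 targets and cell-cycle genes 6 of 36 had a member (16.7%), among them CCND1, the cyclin D1 gene, whose stronger member had a PDS5A fold of 83.9 and a CTCF fold of 8.67. That member lay only 986 bp from a STAG2 peak.

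The protocadherin count rested on 1 peak. Members lay within 1 kb of an end of 22 of 53 clustered protocadherin genes (41.5%), but the gamma genes share their last exons. A single member 485 bp from that common 3' end, with a STAG1 fold of 2.90, accounts for all 22. At their own starts PCDHGA7, PCDHGA9, PCDHGA10, PCDHGB1 and PCDHGB2 had members, 19 to 53 bp from the start, with STAG1 folds from 7.53 to 18.0. Of the 6 members, 5 had RAD21 in A2 under DMSO and all 5 kept it at 4 h, beside 26.1% of all members and 73.9% of all STAG1 peaks. At 24 h 4 of the 5 kept it, beside 49.5% of all members. The median STAG1 fold of the 6 was 9.67, beside 5.24 for all members, and the part of strength was not tested. CTCF sites at these starts are known to take part in the choice of the expressed protocadherin.

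Numbered zinc finger genes had 67 of 517 (13.0%), with ZNF653 the highest at a STAG1 fold of 24.8, and solute carriers 64 of 379 (16.9%), led by the ion cotransporter gene SLC12A2 at 21.0, beside 14.7% of all protein-coding genes. HOX genes had 2 of 39 (5.13%), of which HOXD13 had a STAG1 fold of 30.7 and RAD21 in all 6 lists. Replication-dependent histone genes had 4 of 70 (5.71%), and 1 of the 4, H1-10, is a replication-independent linker histone that the name pattern also took. None of the 390 olfactory receptor genes and none of the 15 retinal pigment epithelium genes had a member.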

How the data were processed

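Peak lists of 12 ChIP-seq libraries in hTERT RPE-1 cells were used as deposited, 1 list per library; the 10 inputs had no list. Per the submitters' processing notes, BWA, Picard, SAMtools, bedtools, deepTools and MACS2 were used with hg38 and mm10, and versions, roles and calling settings are not given in the sources used here. The authors' deposited columns hold an integer score, a fold enrichment over background (a linear ratio), and −log10 p and −log10 q. The peak names carry 0.001 for CTCF and 0.01 for the other lists. No spike-in factor was applied, since peak lists carry no read totals.

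Overlap meant at least 1 shared bp, and summits were taken as start plus the offset column. Gene ends came from 19974 protein-coding RefSeq genes (GRCh38.p14), chromosome Y left out, and strand from 15813 genes with a promoter window. A difference between shares was called when its 95% Newcombe interval left out 0. Peaks are not replicates. Alternatives were a −log10 q of at least 10, summits within 200 bp, windows of 500 bp and 2.5 kb, gene starts only, STAG2 kept 1 kb away, the CTCF list above its median fold, RAD21 lists cut to 25763 peaks, and matching on deciles. The interval code was tested on simulated peaks. Python 3.11.15, numpy 2.4.6, pandas 2.3.3, scipy 1.17.1 and matplotlib 3.10.9 were used. Members, gene lists and comparisons were chosen with earlier results of these data known. Named members were the 10 of highest STAG1 fold, the 4 of highest D7 RAD21 fold lost in all dTAGV-1 lists, the 3 strongest without RAD21, with WAPL, or at 2 or more genes, those with HA, those at the limits, those at cohesin genes, and the 2 strongest per other list; further genes of a list were named after their values were seen.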

Additional observations from a re-analysis of the deposited data

Results flagged for a closer look

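RAD21 retention at the members moved in opposite directions between 4 h and 24 h of dTAGV-1 in the 2 clones. The share at 24 h minus that at 4 h was 23.4 points in A2 and -26.8 points in D7. Other STAG1 peaks moved in the same directions: over all of them retention went from 73.9% to 81.7% in A2 and from 93.0% to 82.2% in D7, and at distal STAG1-only sites from 57.7% to 71.6% and from 90.1% to 68.0%. Each clone has 1 library per time, so this contrast between clones was not tested.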

How the results depend on the processing

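No paired analysis was possible because every group is 1 library and the labels give no replicate numbers that pair samples. Of 148 values of the main results under alternative settings, 118 kept both their direction and their call (or, for the number of members, stayed close to the main value), 6 kept their direction and became called, 5 kept it and lost the call, 16 changed sign and 3 without a direction moved, and of 156 counts of RAD21 lists at named members 127 were the same. Retention in A2 kept its direction and its call against both reference classes under every setting, from -65.2 to -20.1 points at 4 h and -47.6 to -23.2 at 24 h against shared sites, and from -33.9 to -12.7 and -24.7 to -7.62 against distal sites. The other comparisons with distal STAG1-only sites depended on the setting. RAD21 occupancy differed by -1.32 points with a −log10 q of at least 10 in every list, -9.83 with that limit in the readout lists only, -10.8 with summits within 200 bp, -0.558 with a 500 bp window, -0.295 with gene starts only and -22.6 with RAD21 lists of equal length, but by 4.29 within STAG1 fold deciles and 4.03 within CTCF fold deciles. PDS5A occupancy against distal sites was -0.495, -3.51 and -2.998 points under the first 3 of those settings. D7 retention at 4 h against distal sites was -6.88, -9.63 and -7.59 under the same 3, -6.80 with lists of equal length, 0.0228 in the CTCF list above its median fold, and 3.17, 4.63 and 1.85 within deciles of STAG1, DMSO RAD21 and CTCF fold. D7 retention at 24 h was 0.972, 4.22 and -0.581 within those deciles. Against shared sites, matching on STAG1 fold gave -2.08 for RAD21 occupancy, 14.7 for PDS5A occupancy and -2.004 for D7 retention at 4 h, matching on DMSO RAD21 fold gave -1.48 for the last, and matching on CTCF fold gave -6.27 for PDS5A. The cause of these changes was not tested. The number of members was 1278 with the CTCF list above its median fold. The share of member windows with the stricter motif was 6.28% within 65% to 75% GC, and the relaxed motif stood in 33.0% of all member windows. Matching on DMSO RAD21 fold or CTCF fold, and the GC band, were chosen after seeing the data. Intervals cover counting error only, depth is unknown, and a weak peak cannot be told from an absent one.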
